A study of Homo sapiens with 12 samples.

Results

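The clustered protocadherins are 53 protein-coding genes on the long arm of chromosome 5, out of 20037 protein-coding genes on the chromosomes in the RefSeq table of GRCh38.p14. They were chosen by name, as the genes on chromosome 5 whose symbols begin with PCDHA (15 genes), PCDHB (16 genes) or PCDHG (22 genes), and they lay along chr5:140786140-141512975. Peaks over them were examined in 8 CUT&Tag libraries of HepG2/C3A, an epithelial-like line from a hepatocellular carcinoma. CUT&Tag uses an antibody to bring a DNA-cutting transposase to chromatin, so that fragments near the antibody's target are tagged and sequenced. The antibodies recognised trimethylated lysine 27 of histone H3 (H3K27me3) or succinylated lysine on any protein (Ksu). For each antibody there were 2 control libraries and 2 libraries of cells given 10 mM sodium succinate, all after 48 hours and all labelled as biological replicates. Of the 12 samples listed, 4 used IgG and are not analysed here, and no value below has an antibody background beside it. The comparison asks whether added succinate changed where either mark lay.

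Protocadherins are cell-adhesion proteins best known from neurons, where each cell uses a few of the clustered genes as a surface identity code. In PCDHA and PCDHG, each variable exon has a promoter of its own and is spliced to constant exons at the end of the cluster, while PCDHB genes stand alone without constant exons. Most of the variable promoters share a short conserved element bound by CTCF. The C-type genes at the ends of PCDHA and PCDHG are used more evenly between neurons, and PCDHAC2, PCDHGC4 and PCDHGC5, like PCDHB1, are known to lack that element. H3K27me3 is laid down by Polycomb repressive complexes and marks repressed genes, many of them regulators of development.

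The H3K27me3 lists placed a single domain in all 4 libraries, at PCDHGC4 and PCDHGC5. The 250 bases before the annotated starts of 4 C-type genes are printed below. H3K27me3 peaks began in or covered the PCDHGC4 run, and a peak of control replicate 1 covered the PCDHAC2 run. The PCDHAC1 and PCDHGC3 runs had no H3K27me3 peak in any library. They come from RefSeq (GRCh38.p14, plus strand) and are written 5′ to 3′, with CG dinucleotides in capitals. The positions are chr5:141484780-141485029 for PCDHGC4, chr5:140966226-140966475 for PCDHAC2, chr5:140926049-140926298 for PCDHAC1 and chr5:141475716-141475965 for PCDHGC3.
PCDHGC4: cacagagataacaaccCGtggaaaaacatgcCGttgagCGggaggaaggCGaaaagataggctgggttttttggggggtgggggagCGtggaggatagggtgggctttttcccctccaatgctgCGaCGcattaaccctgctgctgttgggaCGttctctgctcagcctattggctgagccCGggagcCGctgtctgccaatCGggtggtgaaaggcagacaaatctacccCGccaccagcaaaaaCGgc
PCDHAC2: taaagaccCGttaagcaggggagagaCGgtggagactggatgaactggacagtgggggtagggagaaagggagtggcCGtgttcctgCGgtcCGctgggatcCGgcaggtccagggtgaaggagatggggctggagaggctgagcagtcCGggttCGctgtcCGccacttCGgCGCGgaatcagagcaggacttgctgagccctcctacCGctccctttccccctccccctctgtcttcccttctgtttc
PCDHAC1: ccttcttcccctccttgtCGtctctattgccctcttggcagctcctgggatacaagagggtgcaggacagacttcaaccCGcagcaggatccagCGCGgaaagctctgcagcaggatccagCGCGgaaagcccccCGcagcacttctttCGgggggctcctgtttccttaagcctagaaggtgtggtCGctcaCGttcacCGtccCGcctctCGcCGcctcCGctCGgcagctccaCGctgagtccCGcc
PCDHGC3: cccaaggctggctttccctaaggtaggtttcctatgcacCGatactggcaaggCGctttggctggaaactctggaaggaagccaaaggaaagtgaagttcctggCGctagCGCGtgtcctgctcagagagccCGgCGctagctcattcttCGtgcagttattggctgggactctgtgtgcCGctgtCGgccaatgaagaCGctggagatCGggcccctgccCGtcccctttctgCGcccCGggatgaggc
These runs held 13 CG dinucleotides for PCDHGC4, 13 for PCDHAC2, 18 for PCDHAC1 and 15 for PCDHGC3. In the PCDHGC4 run, the H3K27me3 domain began at base 86 in control replicate 1 and at base 78 in succinate replicate 2, counted from 1 at the first base printed. In the other two libraries the domain began upstream and covered the whole run.

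For comparison, the same 250 bases are shown for the first gene of each cluster, where none of the printed runs had an H3K27me3 peak in any library. They lie at chr5:140785890-140786139 for PCDHA1, chr5:141051124-141051373 for PCDHB1 and chr5:141330264-141330513 for PCDHGA1.
PCDHA1: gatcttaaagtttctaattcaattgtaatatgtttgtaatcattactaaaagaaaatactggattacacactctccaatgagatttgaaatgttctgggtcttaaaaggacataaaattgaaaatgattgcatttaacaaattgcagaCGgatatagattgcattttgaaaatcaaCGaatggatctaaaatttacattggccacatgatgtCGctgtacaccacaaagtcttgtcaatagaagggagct
PCDHB1: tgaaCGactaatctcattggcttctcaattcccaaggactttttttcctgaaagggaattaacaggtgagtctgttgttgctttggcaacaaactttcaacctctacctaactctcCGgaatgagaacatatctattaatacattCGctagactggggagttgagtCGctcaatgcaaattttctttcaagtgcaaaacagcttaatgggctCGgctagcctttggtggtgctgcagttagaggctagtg
PCDHGA1: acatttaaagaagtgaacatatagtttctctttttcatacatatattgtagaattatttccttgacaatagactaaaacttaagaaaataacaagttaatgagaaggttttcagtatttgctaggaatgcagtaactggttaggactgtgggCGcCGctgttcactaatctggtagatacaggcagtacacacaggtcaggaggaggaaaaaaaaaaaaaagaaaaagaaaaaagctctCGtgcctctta
These runs held 3, 5 and 3 CG dinucleotides. RefSeq promoter windows, which reach from 250 bases before the start to 50 after it, were found for 47 of the 53 genes. The genes without one were PCDHA3, PCDHA13, PCDHB6, PCDHB11, PCDHGA12 and PCDHGC5.

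The lists of peaks differed widely between libraries, and this touches every result. H3K27me3 lists held 5531 to 19133 peaks over 3.83 to 6.51% of the chromosomes, and Ksu lists held 76702 to 629903 peaks over 2.63 to 10.8%. The read depth behind a peak list is unknown, which leaves no counting interval to give. Peak heights were whole multiples of 1 step per library, within 0.02 of a whole number, and the step differed 32.2-fold between H3K27me3 libraries, so heights are given in steps. The lowest total signal of any listed peak, here called the floor, was 51892, 211123, 132374 and 330250 steps in the H3K27me3 libraries, in the order control 1, control 2, succinate 1 and succinate 2. For Ksu it was 8977, 76.0, 4247 and 49.0 steps in the same order, which is kept throughout. None of 18 liver genes fixed as markers of the line, such as albumin and the apolipoproteins, had an H3K27me3 peak over its body in any library. Of all protein-coding genes, 75.0% had none either. In the other marker lists fixed alongside, 5 of 8 neural, 2 of 4 blood cell, 1 of 3 endothelial and 1 of 3 fibroblast genes had none.

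**Figure D1:**
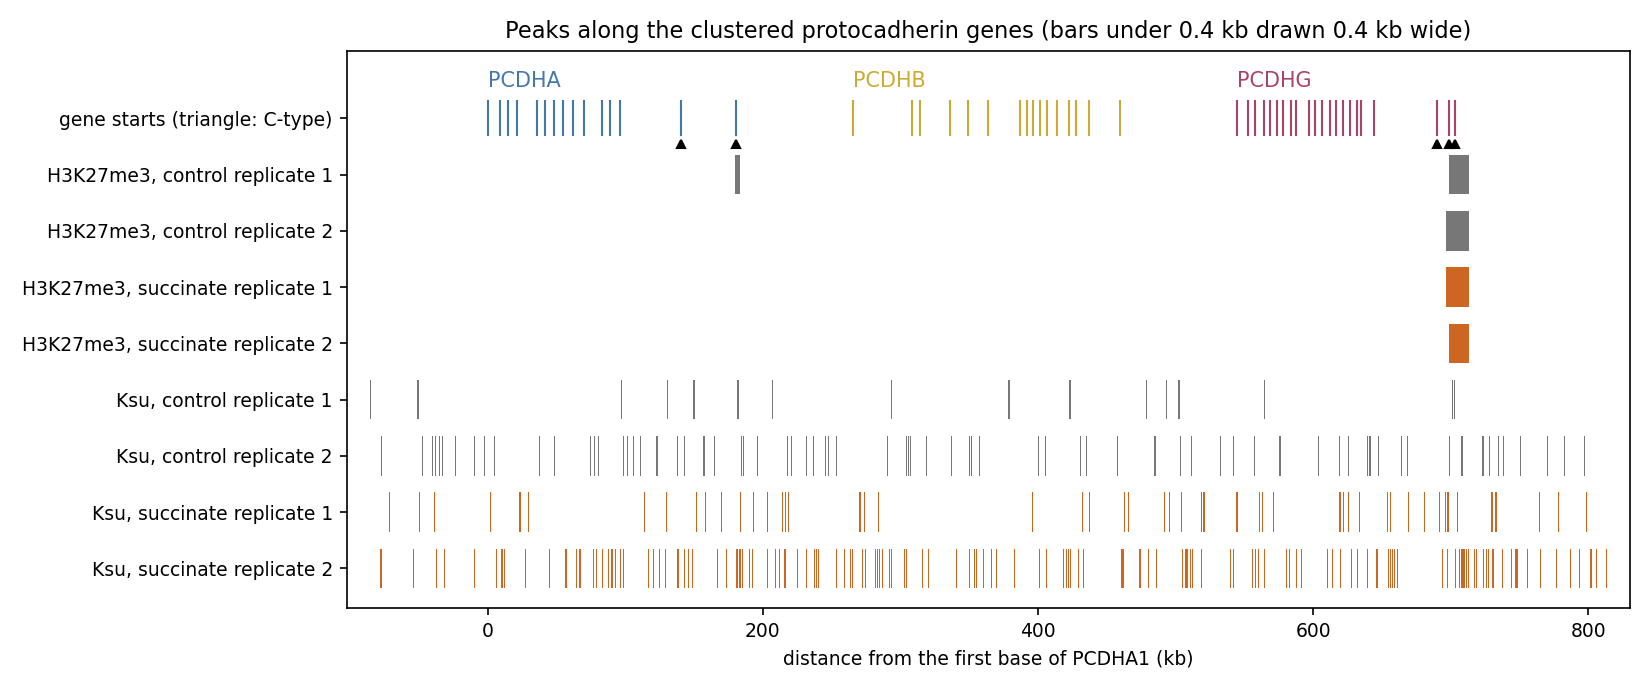
Peaks along the clusters in each of the 8 libraries. The x axis is the distance from the first base of PCDHA1 in kb, ticks in the top row are gene starts with triangles under C-type genes, and bars are peaks (grey: control, orange: succinate). H3K27me3 bars stand at the PCDHG end in every library and at PCDHAC2 in control replicate 1, while Ksu bars are scattered and differ in number.

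H3K27me3 peaks were missing from nearly all of the locus and lay in the last C-type genes of PCDHG. The domain spanned chr5:141484865-141499356 in control replicate 1 (14492 bp) and chr5:141482462-141499584 in control replicate 2 (17123 bp). In the succinate libraries it spanned chr5:141482234-141499336 (17103 bp) and chr5:141484857-141499326 (14470 bp). The 4 libraries shared 14462 bp of it, chr5:141484865-141499326. No other H3K27me3 peak lay in the clusters, between them or within 100 kb of them in 3 of the 4 libraries.

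The downstream edge was placed alike in all libraries and the upstream edge was not. The ends fell within 258 bp of each other, 13391 to 13649 bp before the shared end of the PCDHG genes, inside the body of PCDHGC5. This was the only edge in the locus that all 4 libraries shared within 1 kb. The starts spread over 2631 bp. They lay 165 and 2568 bp before the start of PCDHGC4 in control and 2796 and 173 bp before it in succinate. Control replicate 1 and succinate replicate 2 thus started 8 bp apart, and control replicate 2 and succinate replicate 1 started 228 bp apart, so the pairs did not follow the treatment. The place of highest signal was 2904, 2470, 2901 and 2906 bp after the start of PCDHGC4, before the start of PCDHGC5. The gene table gives the extent of a gene and not its exons, so exon or intron is not stated here.

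**Figure D2:**
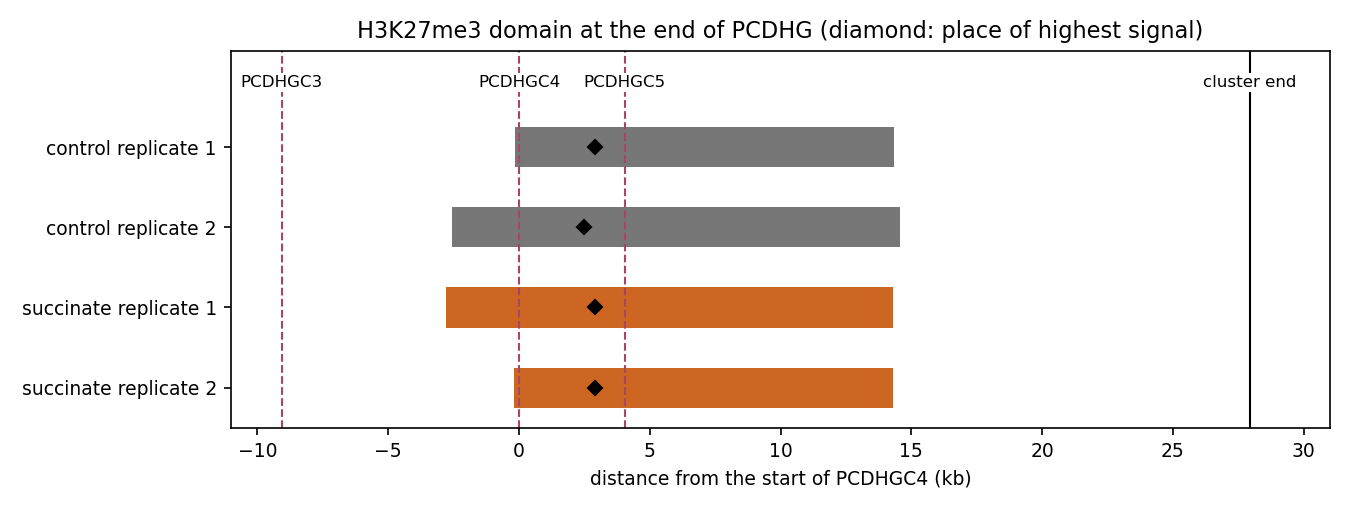
The H3K27me3 domain in each library. The x axis is the distance from the start of PCDHGC4 in kb, bars are the peak, diamonds the place of highest signal, dashed lines gene starts and the solid line the end of PCDHG. The ends line up within 258 bp, while the starts fall near the PCDHGC4 start in one library of each treatment and 2568 or 2796 bp before it in the other.

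The height of the domain was counted in steps and ranked among the peaks of its own library. With the read depth unknown, steps can be compared only within a library, so overlap in steps does not compare the treatments. At its top it reached 128 and 121 steps in control and 101 and 134 in succinate, so the treatments overlapped. Its total signal was 444413 and 554504 steps in control and 428746 and 541194 in succinate, again with overlap. Over the floor of its own library this was 8.56 and 2.63 times in control and 3.24 and 1.64 times in succinate. Among the peaks of its library, its height stood at percentile 78.2 and 30.01 in control, against 26.3 and 6.45 in succinate. The median peak of those libraries was 83, 149, 136 and 246 steps high, so the rank was low where the listed peaks were high. In width it stood at percentiles 82.5, 61.5, 70.3 and 37.3. Over all peaks in the clusters, the median height percentile of a library was 28.7 points lower in succinate than in control (pooled SD 18.0, exact permutation p = 0.333). With 2 libraries against 2, 0.333 is the smallest p that this test allows, and the part of the floor in this difference was not tested.

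A second H3K27me3 peak was listed in control replicate 1 alone, at PCDHAC2, the last gene of PCDHA. It spanned chr5:140965936-140969667 (3732 bp), from 540 bp before the start of PCDHAC2 to 3191 bp after it, with its top at 1756 bp. It was 75 steps high, at percentile 41.9 of its library. Its total signal of 56266 steps was 1.08 times the floor of that library and below the floors of the other 3, that is, below the lowest total listed there. Steps are not known to be on one scale between libraries, so this does not show what the other 3 would have listed. The PCDHAC2 peak was absent when each H3K27me3 library was held to the same number of peaks or to a common floor in steps.

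To compare genes whose bodies are nested, each PCDHA or PCDHG gene was given the segment from its own start to the next start, and each PCDHB gene its body. By segment, 5 of the 53 genes had H3K27me3 in 1 or more libraries, and these were the 5 C-type genes. The other 48 had none in any library, which covers all 16 PCDHB genes and the first genes PCDHA1 and PCDHGA1. PCDHGC4 was covered over 100% of its segment in each of the 4 libraries. PCDHGC5, which holds the constant exons in its segment, was covered over 43.00 and 43.96% in control, against 42.92 and 42.88% in succinate. PCDHGC3 was covered over 1.82 and 28.3% in control, against 30.9 and 1.91% in succinate, by the part of the domain that lay before PCDHGC4. PCDHAC2 with 6.96% and PCDHAC1 with 1.34% were covered in control replicate 1 and at 0 elsewhere. Both values came from the 1 peak at PCDHAC2, whose first 540 bp lay at the far end of the PCDHAC1 segment. With equal numbers of peaks, 3 segments had H3K27me3 in any library, those of PCDHGC3, PCDHGC4 and PCDHGC5.

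Counted over whole gene bodies, 22 of the 53 genes (41.5%) had H3K27me3 in every library, beside 12.3% of all protein-coding genes. These were all 22 PCDHG genes, since each PCDHG body runs to the same end and so contains the domain. Of all genes, 75.0% had no H3K27me3 peak over the body in any library. By promoter window, 1 of the 47 members with a window was marked in every library, PCDHGC4, beside 7.35% of all 15842 windows. The domain covered 215, 300, 300 and 223 of the 300 bases of that window. The PCDHAC2 window was covered over all 300 bases in control replicate 1, and no other member's window had H3K27me3.

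**Figure D3:**
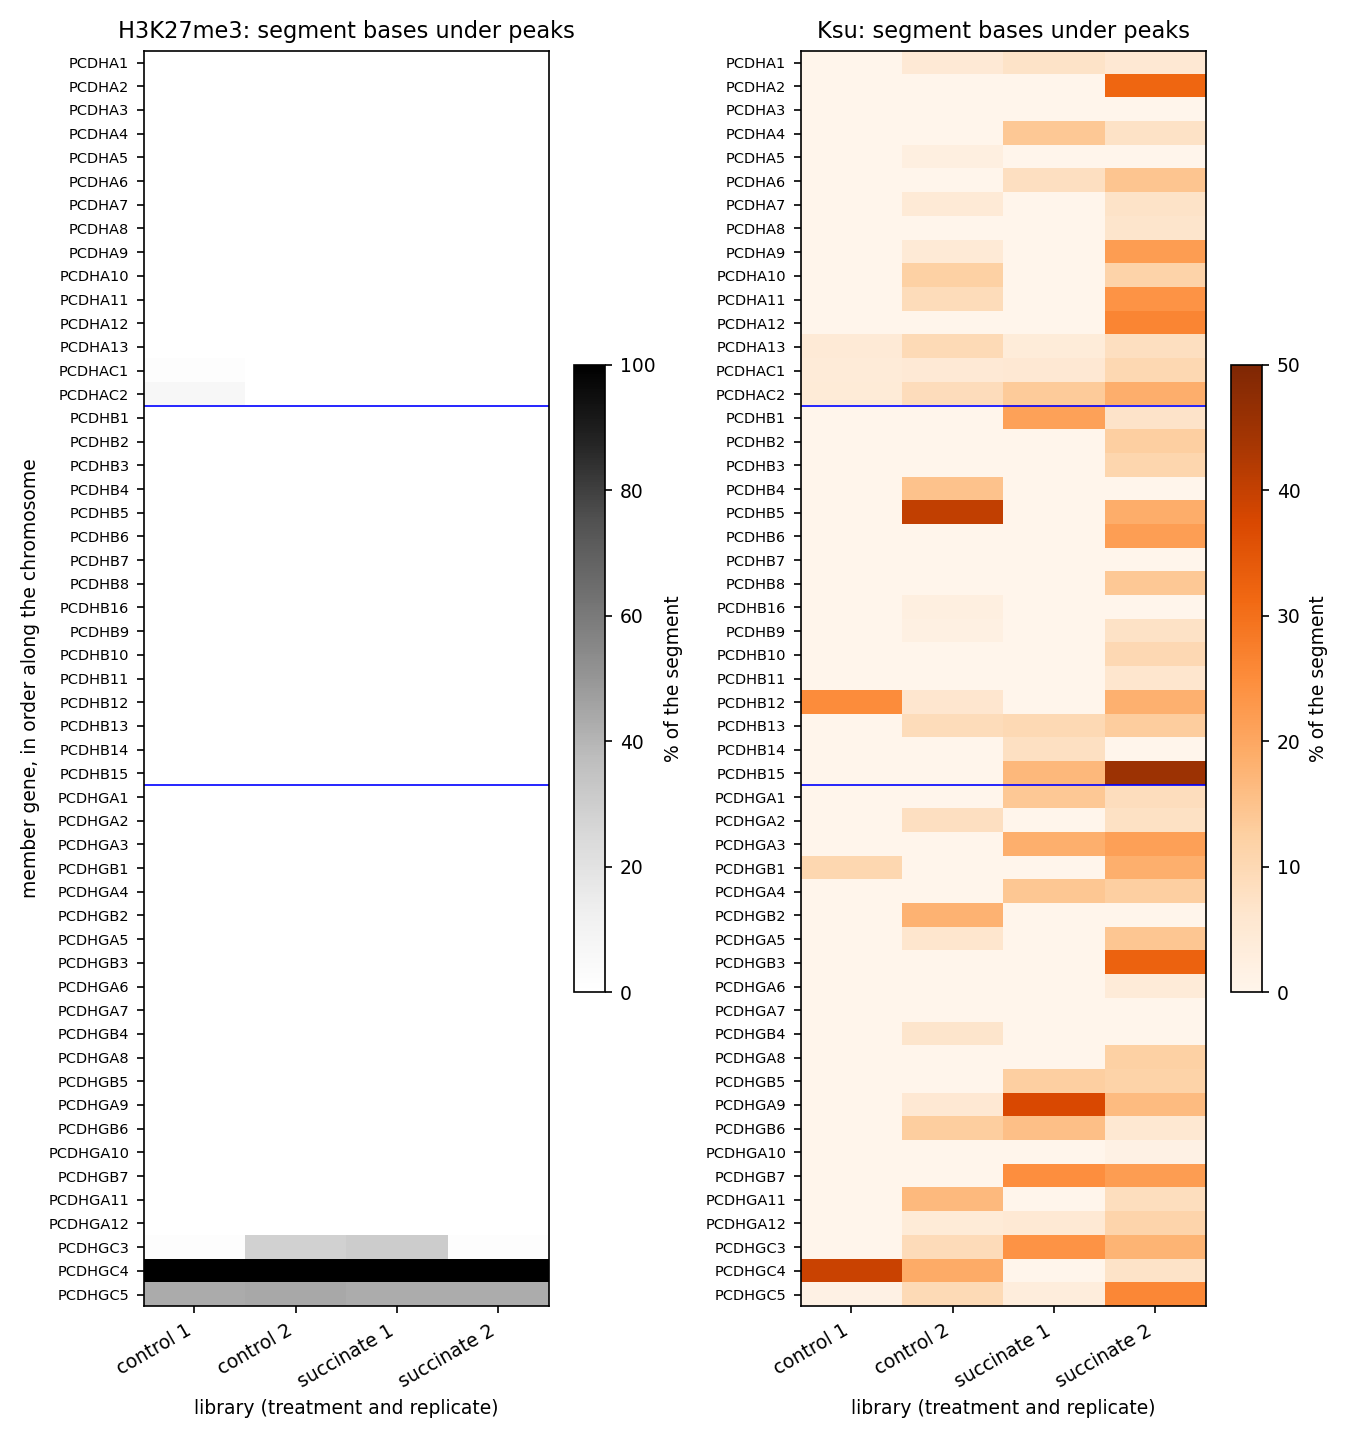
Share of each gene's segment under peaks, in % by colour, with genes in chromosome order on the y axis and libraries on the x axis. Left, H3K27me3 fills the PCDHGC4 segment in all 4 libraries and leaves 48 segments empty. Right, Ksu cover (scale ending at 50%) is scattered and differs between libraries. Lines separate PCDHA, PCDHB and PCDHG.

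Between treatments, the H3K27me3 values of these genes lay close together. Peaks covered 3.84 and 3.61% of the merged gene bodies in control (mean 3.73% ± 0.164, SD, n = 2) and 3.61 and 3.05% in succinate (3.33% ± 0.393, SD, n = 2). The difference of -0.398 percentage points exceeded the pooled SD of 0.301, and no control library overlapped a succinate one (p = 0.333, exact permutation test). It rested on the PCDHAC2 peak of control replicate 1, and with equal numbers of peaks it was -0.0044 points. PCDHG alone was covered over 7.94 and 9.38% in control, against 9.37 and 7.93% in succinate, a difference of -0.012 points with overlap. Relative to each library's whole cover, the clusters stood at log2 -0.76, -0.08, -0.65 and -0.58, below the library average in every library. That log2 value was 0.19 lower in succinate, less than the pooled SD of 0.34, and without control replicate 2 it was 0.14 higher. At a common floor it was lower by a larger amount, -0.51 with a pooled SD of 0.23, and the treatments did not overlap (p = 0.333, exact permutation test).

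By segment, 0 of 53 genes had more H3K27me3 in both succinate libraries than in both controls, beside 3.71% of all gene bodies. Less H3K27me3 was found in 1 segment, PCDHGC5, beside 1.13% of all gene bodies, and by gene body in 2 of 53 (3.77%). The segment's difference was -0.58 percentage points, at a domain end placed within 258 bp in all libraries. With equal numbers of peaks the counts were again 0 and 1, beside 4.98% and 0.923% of all gene bodies. Without control replicate 2 they were 1 and 3, and without succinate replicate 2 the first was 1. No share of all gene bodies was counted with a library left out.

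**Figure D4:**
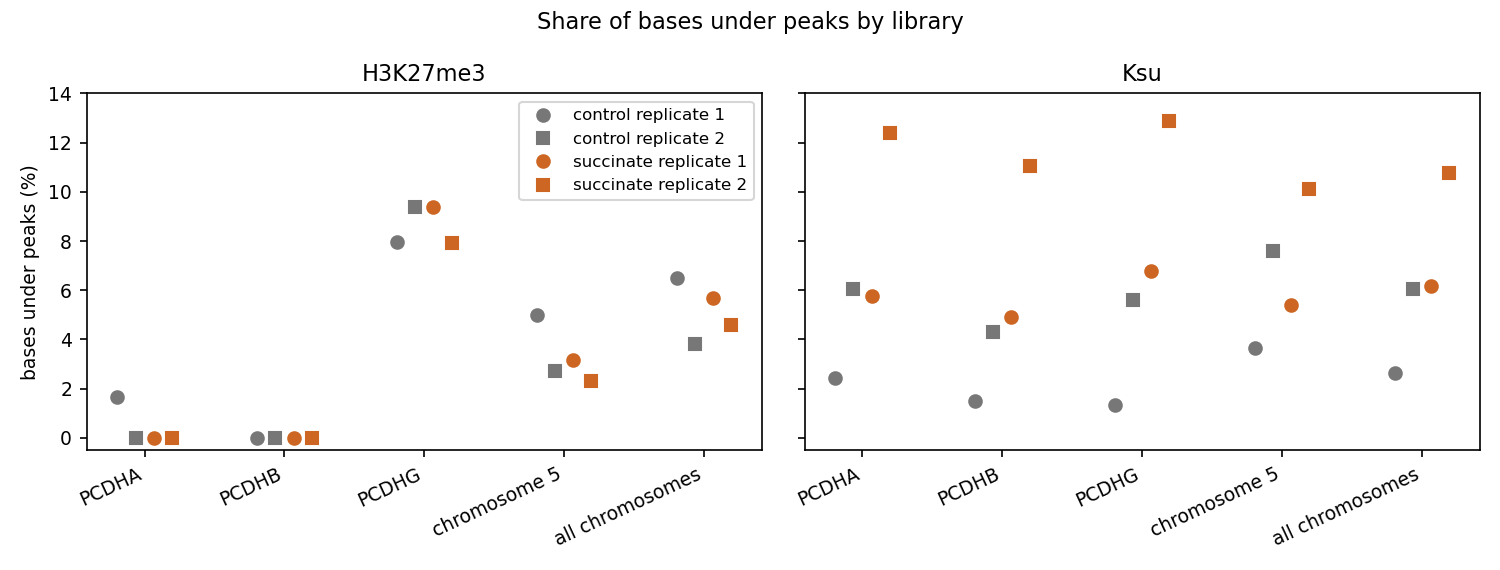
Share of bases under peaks in %, for the merged gene bodies of each cluster, chromosome 5 and all chromosomes, with 1 point per library (circle: replicate 1, square: replicate 2). For H3K27me3 only PCDHG lies above the chromosome values, at 7.93 to 9.38%. For Ksu succinate replicate 2 is highest in every column, and control replicate 1 is lowest.

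The C-type promoter windows were richer in G and C than those of all other members with a window, a property that the choice of genes did not use. Over the 300-base windows, PCDHAC1 held 27 CG dinucleotides, PCDHGC4 23, PCDHGC3 18 and PCDHAC2 15. The other 43 members with a window had a median of 7, with a range of 2 to 16. The median of all 15842 windows was 22, so PCDHGC4 and PCDHAC1 lay above it and the remaining members below. Windows with H3K27me3 in every library had a median of 19. G and C made up 60.7% of the PCDHGC4 window and 63.0% of the PCDHAC2 window, against a median of 38.7% in the 43 others and 62.7% over all windows. CG content did not by itself separate marked from unmarked members: PCDHAC1 had the most of all members and no H3K27me3 over its window, and PCDHGC3 and PCDHGB6, with 18 and 16, had none either.

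Short motifs were searched on both strands of the 300-base windows. CGCT, the core of the conserved protocadherin element, occurred in 46 of 47 members (97.9%) and in 81.0% of all windows. TATAA occurred in 17 members (36.2%) and in 16.9% of all windows, and in 0 of the 4 C-type windows. The core of the CTCF motif, searched as 1 fixed pattern of letters, occurred in 1 member, PCDHB9 (2.13%), and in 2.72% of all windows. The search misses any site that differs from the pattern at a fixed letter, so it cannot show that a window lacks a CTCF site. The shorter core was also found in the windows of PCDHAC2, PCDHGC4 and PCDHB1, which are known to lack the conserved element. Its presence therefore does not show that the element is there. CGCT contains a CG dinucleotide, so those counts are not independent, and a match describes letters and not binding.

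**Figure D5:**
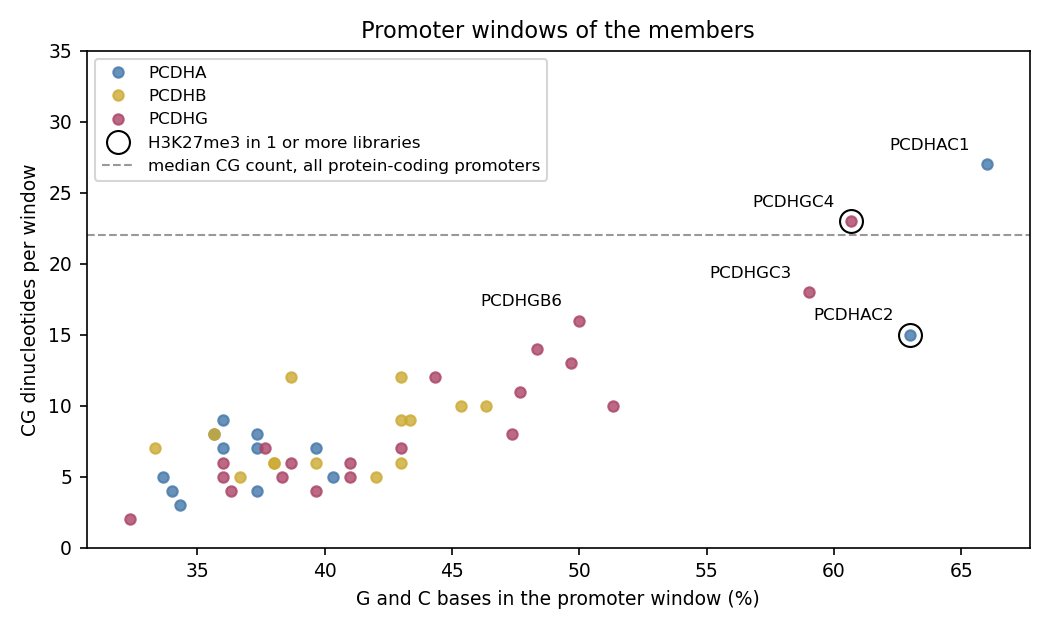
CG dinucleotides per 300-base promoter window (y axis) against the share of G and C bases in % (x axis) for the 47 members with a window, coloured by cluster. Circles mark windows with H3K27me3 in 1 or more libraries, and the dashed line is the median of 22 over all windows. The 4 C-type genes lie at 59.0% G and C or more, and 2 of them are circled.

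Ksu peaks were listed across the clusters and were narrow, with no antibody background to set them against. The deposited lists held 9 and 61 Ksu peaks over the gene bodies in control, with 44 and 124 in succinate. Their median width in a library was 419 to 964 bp, where the H3K27me3 domain was 14470 to 17123 bp wide. They covered 1.88 and 5.63% of the merged gene bodies in control (3.76% ± 2.65, SD, n = 2) and 6.04 and 12.4% in succinate (9.22% ± 4.50, SD, n = 2). The difference of 5.47 percentage points exceeded the pooled SD of 3.69 without overlap (exact permutation p = 0.333). Whole-library Ksu cover moved with it, at 2.63, 6.07, 6.16 and 10.8%. Without succinate replicate 2 the difference was 2.28 points, and without succinate replicate 1 it was 8.65. At a common floor it was -0.277 points, and with equal numbers of peaks 0.390 points. Over the whole span with the bases between genes it was 4.94 points, and with peaks merged within 1 kb 6.63, and in both the treatments overlapped. With only peaks of at least 500 bp it was 4.24 points (pooled SD 1.77), without overlap.

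Set against the cover of the same library, Ksu at the clusters stood at log2 -0.48, -0.11, -0.03 and 0.20. The succinate libraries were higher by 0.38, above the pooled SD of 0.22 and without overlap (exact permutation p = 0.333). The separation did not hold over the whole span (0.29, pooled SD 0.32), with equal numbers of peaks (0.26, pooled SD 0.75) or with peaks merged within 1 kb (0.32, pooled SD 0.24), where the treatments overlapped. With only peaks of at least 500 bp the treatments stayed apart, with a difference of 0.55 (pooled SD 0.11, exact permutation p = 0.333). At a common floor the difference changed direction, to -1.41. Chromosome 5 as a whole went the other way, at log2 0.47 and 0.32 in control, against -0.19 and -0.09 in succinate, a difference of -0.54. The 100 kb before PCDHA1 did so too, at -0.28 and -0.22 in control, against -1.11 and -1.003 in succinate. The 100 kb after PCDHG did not, with Ksu over 0, 4.70, 4.21 and 10.3% of its bases and overlap between the treatments. Set against chromosome 5, the succinate libraries were therefore 0.92 higher at the clusters, an alternative chosen after seeing the data.

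By cluster, the values were as follows. PCDHA was covered by Ksu over 2.43, 6.05, 5.77 and 12.4%, which relative to the library was 0.11 higher in succinate with overlap (log2, exact permutation p = 0.667). PCDHB was covered over 1.48, 4.29, 4.91 and 11.1%, a log2 difference of 0.52. PCDHG was covered over 1.34, 5.59, 6.77 and 12.9%, a log2 difference of 0.74, the largest of the 3. For PCDHB and PCDHG control and succinate libraries lay apart (exact permutation p = 0.333 for each), and whether the clusters differ was not tested. In control replicate 1 the PCDHB value rested on 1 Ksu peak and the PCDHG value on 3. Over the whole PCDHB span, with the bases between genes, the log2 difference was 0.17 (pooled SD 0.59) with overlap. Outside the PCDHB gene bodies it was -0.07, again with overlap.

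By segment, Ksu cover was found at 7 and 27 of 53 genes in control and at 20 and 44 in succinate. It was found in every library at 4 genes, PCDHA13, PCDHAC1, PCDHAC2 and PCDHGC5, whose segments are among the longest. By gene body it was found in every library at 37 of 53 (69.8%), beside 31.7% of all genes, and the nested PCDHA and PCDHG bodies share their last bases. PCDHA3, PCDHB7 and PCDHGA7 had none in any library. By gene body 1 of 53 had none, beside 9.97% of all genes. In 16 of 53 segments (30.2%) both succinate libraries lay above both controls. By gene body this was so for 18 of 53 (34.0%), beside 46.6% of all genes. Segments had a median length of 5069 bp, and gene bodies of all genes 24115 bp. Of the 16, 14 were at 0 in control replicate 1, the library with the fewest peaks, and 8 were at 0 in both controls. Without succinate replicate 1, the count was 36, with no share of all gene bodies counted for that setting. With equal numbers of peaks, 2 segments were in this count, PCDHGC3 (0, 4.77, 13.03 and 8.94%) and PCDHGA12 (0, 0, 1.80 and 1.94%), beside 15.8% of all gene bodies. The median difference was 4.12 percentage points for segments and 5.62 for the members' gene bodies, beside 5.36 for all gene bodies.

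The largest such difference was at PCDHB15, the last PCDHB gene, with 0, 0, 17.0 and 45.2% of its body under Ksu peaks. The peaks behind it did not coincide: succinate replicate 1 had a peak at chr5:141248692-141249559, and succinate replicate 2 had peaks at chr5:141246254-141246948 and chr5:141247410-141248509. PCDHGA9 was covered over 0, 5.11, 37.5 and 16.3%. Its longest succinate peaks overlapped, at chr5:141404861-141406446 in replicate 1 and chr5:141405818-141406467 in replicate 2. Each succinate library had a further peak there that the other lacked, and the peak of control replicate 2, chr5:141404972-141405239, overlapped only that of succinate replicate 1. PCDHGB7 was covered over 0, 0, 24.8 and 22.0%, with a region at chr5:141419098-141420197 present in both succinate libraries and neither control. PCDHGA3 was covered over 0, 0, 18.5 and 21.3%, by peaks at different places in the succinate libraries. PCDHGC3 was covered over 0, 9.37, 23.8 and 17.8%. A Ksu region seen in both succinate libraries and neither control lay at its far end, chr5:141483549-141484534. It lay before the H3K27me3 domain of control replicate 1 and succinate replicate 2, and inside that of control replicate 2 and succinate replicate 1.

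Among the first and last genes, PCDHB1 was covered by Ksu over 0, 0, 21.2 and 6.94%, and PCDHGA1 over 0, 0, 13.9 and 8.74%. PCDHA1 was covered over 0, 4.81, 7.17 and 5.22%, so its succinate replicate 2 and control replicate 2 were close. PCDHAC1 was covered over 3.93, 4.83, 5.10 and 10.3%, and PCDHAC2 over 4.25, 8.95, 13.4 and 18.6%. These 5 genes were among the 16, and the libraries of the treatments differed least at PCDHAC1, by 3.30 points. PCDHGC5 was covered over 1.39, 9.75, 3.15 and 25.9%, with overlap between the treatments.

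PCDHGC4, the gene under the H3K27me3 domain, was the single segment with less Ksu in both succinate libraries, beside 0.484% of all gene bodies. Without control replicate 1 there were 11 such segments, without control replicate 2 there were 2, and without succinate replicate 2 there were 3. Leaving out a library makes the rule easier to meet, and no share of all gene bodies was counted for that. PCDHGC4 was covered over 39.3 and 19.2% in control, against 0 and 7.06% in succinate, a difference of -25.7 percentage points. In control replicate 1 its peaks lay at chr5:141486858-141487445, 50 steps high and at percentile 90.1 of that library, and at chr5:141488075-141489413. In control replicate 2 the peak lay at chr5:141484945-141485807, over the start of the gene, so the control peaks did not coincide. In succinate replicate 2 the cover came from the edge of a peak at chr5:141488795-141489533 that ran into PCDHGC5. With equal numbers of peaks its cover was 39.3% in control replicate 1 and 0 in the other 3 libraries, so the treatments overlapped. The single segment lower in succinate was then PCDHB12 (25.02, 6.02, 0 and 0%), beside 4.11% of all gene bodies. Over its whole body, which includes the PCDHGC5 segment, PCDHGC4 had overlapping treatments as well. In the bases of the domain that all H3K27me3 libraries shared, Ksu covered 13.3 and 17.3% in control, against 5.20 and 26.8% in succinate, with overlap. Those values were 5.07, 2.85, 0.844 and 2.49 times the Ksu cover of the same library, and on this scale the treatments did not overlap. The log2 difference was -1.39, above the pooled SD of 0.88 (p = 0.333, exact permutation test). It rested on 2, 2, 1 and 7 Ksu peaks.

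Individual Ksu peaks were seldom shared between libraries. Overlapping peaks of the 4 libraries formed 276 regions along the clusters, and 0 of them had a peak in all 4. The share of such regions on all chromosomes is not given here. A peak in succinate replicate 2 alone made up 47.1% of regions, beside 39.0% on all chromosomes. Peaks of 3 libraries, joined by overlap, made up 5 regions, at PCDHAC2, PCDHB12, PCDHGA9 and at 2 places between PCDHB and PCDHG. Of these, 3 lacked only succinate replicate 1 (1.09%, beside 0.758% on all chromosomes). The other 2 lacked only control replicate 1 (0.725%, beside 2.64%). Both succinate libraries and no control had a peak in 12 regions (4.35%), beside 5.39% of the regions on all chromosomes. Of these 12, 3 lay in PCDHAC2 and the others at PCDHA1, PCDHA4, PCDHGA4, PCDHGB7, PCDHGA12, PCDHGC3 and between the clusters. Both libraries numbered replicate 2, and no other, had a peak in 20 regions (7.25%), beside 8.49% on all chromosomes. The height of Ksu peaks within a library had a median percentile of 77.6, 37.5, 49.4 and 42.5, and the difference of -11.6 points was smaller than the pooled SD, 20.3 (p = 1, exact permutation test). Without control replicate 1 it was 8.40 points. Over promoter windows, Ksu was found at 0, 6, 4 and 6 of 47 members (0, 12.8, 8.51 and 12.8%). Beside this stood 2.03, 7.52, 7.75 and 12.8% of all windows. Ksu was found in 1 or more libraries at 14 members (29.8%), beside 24.9% of all windows. In every library it was found at 0 of the members, beside 5 of all 15842 windows.

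Other clustered families showed other H3K27me3 patterns in the same libraries. Of 39 HOX genes, which set positional identity and are classical Polycomb targets, 33 were marked in each of the 4 libraries, and 77.3, 75.0, 75.7 and 77.1% of their merged bases were covered. Of 171 olfactory receptor genes on chromosome 11, like protocadherins a family chosen from cell by cell, 167 had no H3K27me3 in any library. Their cover was 0.974, 0, 1.22 and 1.05%, below the 3.05 to 3.84% of the protocadherin clusters in each library. The protocadherin cover came from 1 domain in 3 libraries, and in every library that domain lay in the bodies of 22 of the 53 genes. HOX peaks lay over 33 of 39 gene bodies, and the number of HOX domains was not counted.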

How the data were processed

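HepG2/C3A cells were profiled by CUT&Tag for H3K27me3 and Ksu, with 2 libraries per antibody and treatment. The deposited values are signal in SEACR peak lists, 1 list per library, on hg38 per the submitters' processing notes. The authors' lists are named stringent. Aligner, scaling, control track and threshold are not given in the sources used here. Peaks on 24 chromosomes (3056 Mb) were used. Covered bases were counted with Python 3.11.15, numpy 2.4.6 and pandas 2.3.3 over merged RefSeq GRCh38.p14 gene bodies, segments and promoter windows, and any overlap of 1 bp counted. The counting was tested on simulated peaks. Treatments were compared by exact permutation, two-sided, with 6 possible arrangements, read beside the pooled SD and the overlap of the libraries. The replicates are labelled biological and their culture is not described further, so p-values and SDs speak for these libraries only. A p-value ranks the difference among the 6 arrangements and is 0.333 for any complete separation, however small. The pooled SD gives the spread between libraries. Genes named singly are cluster ends, C-type genes, PCDHB1, extremes of cover per cluster, genes at domain edges, and the 5 largest differences without overlap per direction. Other genes were named after their values were seen. The genes and lists were chosen with earlier results of these data known. Alternatives were other peak thresholds, merged or wider peaks, whole gene bodies, other tolerances for edges, leaving out single libraries, and a block for replicate number.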

Additional observations from a re-analysis of the deposited data

How the results depend on the processing

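Of 97 values under alternatives for 11 results, 74 kept their direction and, for differences, lay within 1 pooled SD of the first value or, for counts, within 1.5 times of it, 18 moved further and 5 changed direction. The cause was not tested. Holding libraries to a common floor gave a Ksu cover difference of -0.277 percentage points, a Ksu log2 enrichment difference of -1.41, an H3K27me3 cover difference of -0.0044 and 0 segments with more Ksu. With equal numbers of peaks these were 0.390 points for Ksu cover, -0.0044 for H3K27me3 cover and 2 segments with more Ksu. Keeping only the top 50% of peaks by total signal, the H3K27me3 cover difference was -1.53, the Ksu log2 enrichment difference 0.095 and 9 segments had more Ksu. There the H3K27me3 enrichment had no value, since the domain was missing from succinate replicate 2. By whole gene body, 2 genes had less H3K27me3 and 0 had less Ksu. Against chromosome 5, chosen after seeing the data, the log2 enrichment difference was 0.28 for H3K27me3 and 0.92 for Ksu. Leaving out each library in turn gave -0.676 to -0.120 points for H3K27me3 cover, 2.28 to 8.65 for Ksu cover, -0.53 to 0.14 for H3K27me3 log2 enrichment and 0.19 to 0.57 for Ksu log2 enrichment. For segments it gave 0 to 1 with more H3K27me3, 1 to 3 with less, 16 to 36 with more Ksu (36 without succinate replicate 1) and 1 to 11 with less (11 without control replicate 1). Shares of all gene bodies were not counted with a library left out, at a common floor or for the top 50% of peaks. The height percentile difference was -43.7 to -13.7 for H3K27me3 and -31.7 to 8.40 for Ksu, the last without control replicate 1. Pairing libraries by replicate number as a block cannot change a difference of means here (-0.398 and 5.47 points for cover), and its smallest exact p is 0.5. Over all gene bodies, same-numbered libraries deviated together for H3K27me3 (correlation 0.342) and hardly for Ksu (0.0589). With 2 libraries a group, no p can fall below 0.333, and the unknown depth limits every statement on absent peaks.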

Other observations

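Of the 13 protocadherins outside the clusters, 8 had no H3K27me3 peak over the body in any library, beside 75.0% of all protein-coding genes. In every library 2 of the 13 were marked, beside 12.3% of all genes. These 2, PCDH1 and PCDH12, lie on chromosome 5. PCDH1, an epithelial protocadherin at chr5:141853090-141878410, was covered over 100% of its body in all 4 libraries. PCDH12, best known from blood vessel endothelium, at chr5:141943581-141958202, was covered over 64.6 and 68.0% in control and 47.9 and 47.9% in succinate, without overlap. PCDH20 was covered over 52.8% in control replicate 1 and at 0 elsewhere, and PCDH7 and PCDH9 had under 1% there and 0 elsewhere. The next H3K27me3 peak after the PCDHGC4 domain began 150489 to 166830 bp beyond its end.

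The genes for 16 proteins that act on the clusters, among them CTCF, the cohesin subunits RAD21, SMC1A and SMC3, the loader NIPBL and the DNA methyltransferases, had no H3K27me3 peak in any library. Ksu cover was higher in both succinate libraries than in both controls at 12 of the 16 (75.0%), beside 46.6% of all genes, for example over 0.896, 3.66, 12.3 and 11.6% of CTCF. It overlapped between the treatments at the other 4, SMC1A (0, 4.03, 0.990 and 4.80%), STAG2 (0, 0.818, 0.425 and 3.90%), DNMT1 (1.47, 6.39, 5.67 and 14.9%) and TRIM28. TRIM28 had no Ksu peak in any library. The 6 other genes between the clusters or within 100 kb of them, HARS1, HARS2, ZMAT2, SLC25A2, TAF7 and DIAPH1, had no H3K27me3 peak in any library. These genes were picked from fixed lists for description and no treatment difference was tested at them.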
